A study of Mus musculus with 6 samples.

Results

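Transcription factors that drive epithelial-to-mesenchymal transition (EMT) were examined together with classical mesenchymal markers in cells undergoing reprogramming with or without AKT activation. The set holds 10 genes, listed by symbol for their known roles, with no threshold on a measured value, out of 54331 genes in the table. They are the 7 factor genes *Snai1*, *Snai2*, *Twist1*, *Twist2*, *Zeb1*, *Zeb2* and *Prrx1*, and the 3 marker genes *Cdh2*, *Vim* and *Thy1*. All 10 were found, and all 10 had a mean over the libraries of 1 TPM or more (TPM counts the transcripts of a gene relative to all transcripts, scaled by length), the level required for testing.

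Mouse embryonic fibroblasts (MEFs) had been prepared from pooled male E13.5 embryos that carry an Oct4-EGFP transgene on a mixed background of C57BL/6, DBA/2 and ICR. Every well of both groups was transduced by retrovirus with *Oct4*, *Sox2* and *Klf4* (OSK) and with AKT-MER, a myristoylated AKT fused to a modified estrogen receptor. The 3 wells of the OSKA + 4OHT group received 4-hydroxytamoxifen (4OHT), the ligand that activates AKT-MER, and the 3 wells of the OSKA − 4OHT group received the ethanol vehicle. RNA was taken from whole wells at 10 dpi (days postinfection), so each library is a mixture of cells that were and were not reprogramming. The methods describe transduced cells of mixed embryos that were replated into 3 wells per group before 4OHT was added. Nothing in the labels ties a well to its own embryos or transduction. The p-values therefore measure the spread between culture wells and are not taken to cover that between embryo preparations or transductions. The libraries contain no group that received 4OHT without AKT-MER. The authors made that comparison separately, by colony counts and by microarray at an earlier time, and reported limited effects of 4OHT.

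Fibroblasts have to pass through mesenchymal-to-epithelial transition early in reprogramming, the reverse of EMT. SNAIL (*Snai1*, *Snai2*), ZEB and TWIST factors bind short E-box motifs and repress epithelial genes such as the E-cadherin gene *Cdh1*, and together with PRRX1 they keep the mesenchymal program on. N-cadherin (*Cdh2*), the intermediate filament protein vimentin (*Vim*) and the surface glycoprotein THY1 are characteristic products of the mesenchymal state, and loss of THY1 is widely used as an early sign that a fibroblast has begun to reprogram.

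Each library lists between 15814 and 18230 genes above 0, with the fewest in OSKA − 4OHT replicate 1, and each adds up to 1000000 TPM, so the depth behind a value is unknown. Differences were tested by limma-trend on log2(TPM + 0.5) over 15382 genes, and "called" stands below for a p-value under 0.05 after Benjamini-Hochberg adjustment. By this test 542 genes were higher and 303 lower in the OSKA + 4OHT group (64.1% higher). Over all tested genes the fitted changes had a median of 0.14. Quantile normalization moved this median to -0.0047 and gave 428 genes higher and 434 lower (49.7% higher), and a trimmed-mean scaling of the libraries left 53.2% of the called genes higher. An exact permutation test of 1 gene with 3 wells against 3 cannot give a 2-sided p under 0.1. Fold changes below are on that same log2(TPM + 0.5) scale, where the pseudocount of 0.5 makes changes of genes with little RNA look smaller than they are.

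The cultures carried fibroblast transcripts in both groups. The summed level of *Col1a1*, *Col1a2*, *Pdgfra*, *Dcn* and *Lum* was 2377 to 2999.8 TPM without 4OHT and 1510 to 1894 TPM with 4OHT, although *Pdgfra* itself was no higher than 6.498 TPM. Of these 5 genes *Col1a1* and *Col1a2* lay lower in all wells with 4OHT (*Col1a2* called), *Dcn* and *Lum* lay higher in all of them (*Lum* called), and *Pdgfra* overlapped. Epithelial markers (*Cdh1*, *Epcam*, *Krt8*, *Krt18*) summed to 30.1 to 69.4 and to 144 to 156 TPM, and the 4 pluripotency markers chosen (*Esrrb*, *Dppa5a*, *Utf1*, *Tdgf1*) to 1.93 to 3.14 and to 27.0 to 43.5 TPM. *Dppa5a* (0 TPM in all wells without 4OHT, 16.4 to 25.7 TPM with it) and *Tdgf1* were called higher. *Utf1*, also at 0 TPM without 4OHT, was not called (adjusted p = 0.083 by limma-trend), and *Esrrb* overlapped. Macrophage markers (*Ptprc*, *Csf1r*, *Adgre1*, *Cd68*) summed to 23.4 to 36.4 and 21.7 to 31.6 TPM, with *Ptprc* between 0.435 and 1.67 TPM. *Cd68* was between 11.8 and 22.1 TPM, and *Adgre1* reached 18.7 TPM in OSKA − 4OHT replicate 3. *Csf1r*, at most 4.29 TPM, lay lower in all wells with 4OHT but was not called (adjusted p = 0.392 by limma-trend). Endothelial markers (*Pecam1*, *Cdh5*, *Kdr*, *Tek*) summed to 21.4 to 27.9 and 28.1 to 37.6 TPM, with *Cdh5* and *Kdr* at most 0.806 and 0.567 TPM. *Tek* had 12.8 to 15.7 TPM without 4OHT and 21.2 to 23.2 TPM with 4OHT and was not called (adjusted p = 0.102 by limma-trend). *Pecam1* overlapped, between 5.81 and 14.1 TPM. The skeletal muscle factors *Myod1* and *Myog* were listed at 0 in all 6 libraries, and *Des* reached 10.4 TPM in OSKA − 4OHT replicate 3. The part of these cell types in the results below was not tested. In whole wells, fewer cells of a type and less RNA per cell cannot be told apart.

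Of the 10 genes, *Cdh2* alone was called, at 0.514 of its level without 4OHT. In 9 of the 10 the fitted change was below 0, and *Thy1* was the exception with a value above 0. The median log2 fold change of the 10 was -0.40, against 0.14 for all tested genes, and it lay between -0.49 and -0.37 in every alternative that was run. The call of 1 gene lower and 0 higher stands beside 1.97% of all tested genes called lower and 3.52% called higher. At an unadjusted p under 0.05, limma-trend gave 5 of the 10 genes lower (*Cdh2*, *Prrx1*, *Zeb2*, *Vim*, *Snai2*) and 1 higher (*Thy1*), where 7.18% and 14.1% of all tested genes were lower and higher by that rule. The 3 wells of one group lay wholly below those of the other in 6 genes (the same 5 and *Twist1*) and wholly above in *Thy1*, against 10.0% and 18.1% of all tested genes. With an added requirement of an absolute log2 fold change above 1, which 4.23% of all tested genes met, none of the 10 was called by limma-trend. The plot of levels by library shows that the genes span from *Snai1*, at a mean of 6.70 TPM over the 6 libraries, to *Vim*, at 3256 TPM, and that most differences between the groups are small beside that span.

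**Figure D1:**
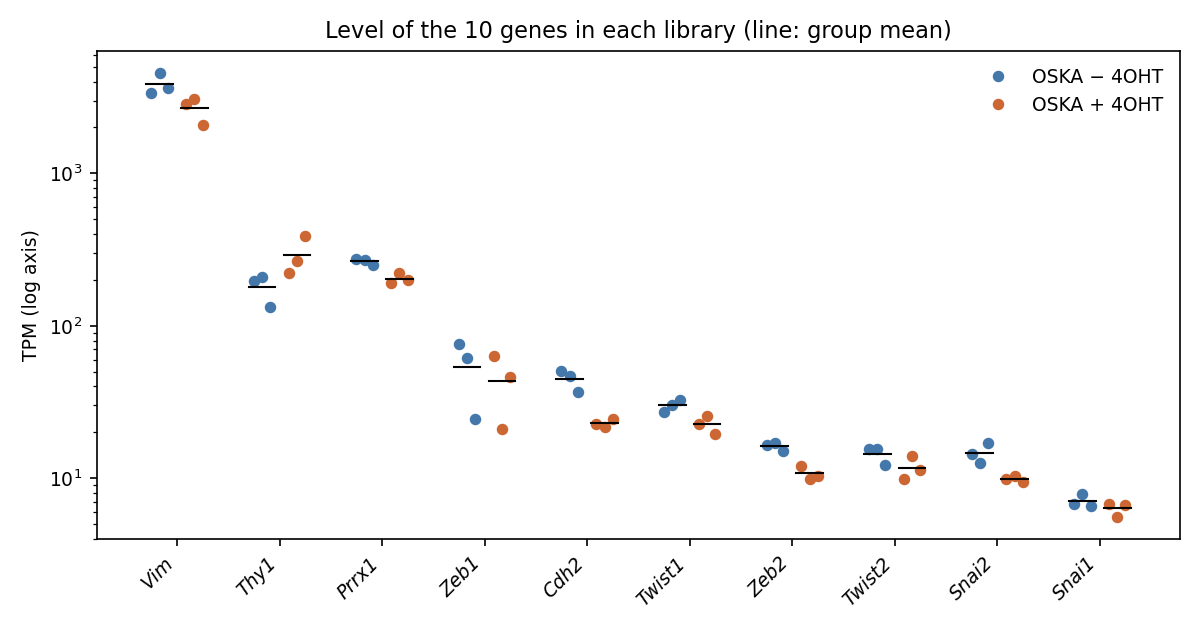
Level of the 10 genes in each library, in TPM on a log axis, with 3 points per group (blue, OSKA − 4OHT; orange, OSKA + 4OHT) and a line at the group mean. *Cdh2* separates most clearly, *Thy1* is the gene whose orange points lie above the blue ones, and the *Zeb1* points range from 20.9 to 75.5 TPM.

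Because SNAIL and ZEB proteins recognise the E-box letters CAGGTG, promoter windows were searched for them on both strands (read from the opposite strand the same site is CACCTG). The windows come from RefSeq on GRCm38.p6 and run from 250 bases before to 50 bases after a gene start. Windows were found for 6 of the 10 genes, and only *Snai1* had the letters. Of 23 epithelial genes known as targets of these factors, 16 had a window and 14 of these (87.5%) had the letters, against 22.6% of the 27025 genes with a window and 1 of 13 (7.69%) other mesenchymal genes. The epithelial genes were listed by hand because factors that bind these letters are known to repress them. Their share is therefore not independent of how the list was made, and nothing is concluded from it. A match is a description of the letters and not a binding site. No window was matched for *Snai2*, *Zeb1*, *Cdh2*, *Thy1*, nor for *Cdh1*, *Llgl2*, *Dsg2*, *Pkp3*, *Krt19*, *St14* and *Cdh3*. The 250 bases upstream of the gene start are shown for *Snai1*, the factor gene that carries the letters itself, and for *Epcam* and *Krt8*, the called epithelial genes with a window, 5′ to 3′ on the strand of the gene, with the E-box letters in capitals. They lie at chr2:167537945-167538194 on the plus strand, chr17:87635729-87635978 on the plus strand and chr15:102004343-102004592 on the minus strand.
Snai1: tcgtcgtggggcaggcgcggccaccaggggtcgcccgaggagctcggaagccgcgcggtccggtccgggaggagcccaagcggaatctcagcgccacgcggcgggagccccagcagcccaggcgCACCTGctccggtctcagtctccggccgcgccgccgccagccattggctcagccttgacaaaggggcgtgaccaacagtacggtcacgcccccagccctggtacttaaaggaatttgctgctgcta
Epcam: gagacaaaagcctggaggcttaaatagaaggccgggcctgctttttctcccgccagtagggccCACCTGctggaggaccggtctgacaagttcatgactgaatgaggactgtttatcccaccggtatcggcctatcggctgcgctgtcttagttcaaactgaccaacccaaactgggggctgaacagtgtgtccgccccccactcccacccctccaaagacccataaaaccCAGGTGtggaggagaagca
Krt8: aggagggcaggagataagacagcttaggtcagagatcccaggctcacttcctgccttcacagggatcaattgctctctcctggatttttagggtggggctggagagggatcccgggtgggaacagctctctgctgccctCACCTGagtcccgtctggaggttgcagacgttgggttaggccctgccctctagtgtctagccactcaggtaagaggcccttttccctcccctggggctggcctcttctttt
The letters begin 126 bases before the gene start in *Snai1*, 187 and 19 bases before it in *Epcam*, and 111 bases before it in *Krt8*.

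The SNAIL genes encode zinc finger repressors of E-cadherin. *Snai1* lies on chromosome 2 of GRCm38 (167538195 to 167542814) and has a single annotated transcript of 1621 bases. Its level was 6.81, 7.82 and 6.56 TPM in the wells without 4OHT (replicates 1 to 3, the order used throughout), while the wells with 4OHT had 6.82, 5.56 and 6.64 TPM. The groups overlapped, and the log2 fold change was -0.15 with a 95% confidence interval from -0.67 to 0.37 (adjusted p = 0.737 by limma-trend). *Snai2* lies on chromosome 16 (14705852 to 14709385), also with a single transcript, of 2021 bases. It had 14.5, 12.6 and 17.0 TPM without 4OHT and 9.95, 10.3 and 9.42 TPM with 4OHT. The groups did not overlap, and its log2 fold change was -0.54 (interval -1.01 to -0.08, adjusted p = 0.175 by limma-trend), so it was not called. The ratio of *Snai2* to *Snai1* within a library was 2.13, 1.62 and 2.59 without 4OHT and 1.46, 1.85 and 1.42 with 4OHT. These ranges overlapped (exact permutation p = 0.2, 0.35 after Benjamini-Hochberg adjustment over the 7 ratios computed). The third family gene, *Snai3*, was between 0 and 0.625 TPM and was not tested.

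TWIST factors are basic helix-loop-helix proteins that act in mesoderm and in EMT. *Twist1* on chromosome 12 (33957671 to 33959829) had 27.4, 30.1 and 32.4 TPM without 4OHT and 22.6, 25.4 and 19.5 TPM with 4OHT. Its groups did not overlap, but the interval of its log2 fold change of -0.41 ran from -0.83 to 0.0086 (adjusted p = 0.243 by limma-trend). *Twist2* on chromosome 1 (91801461 to 91848028) had 15.6, 15.6 and 12.2 TPM without 4OHT and 9.90, 14.0 and 11.3 TPM with 4OHT. These ranges overlapped (log2 fold change -0.30, interval -0.82 to 0.23, adjusted p = 0.501 by limma-trend). An antisense gene, *Gm29100*, shares 1468 identical bases with the opposite strand of a *Twist2* transcript, so reads of this pair are separated only if strand was used in the quantification, which the sources used here do not give. The ratio of *Twist1* to *Twist2* was between 1.75 and 2.67 without 4OHT and between 1.73 and 2.28 with 4OHT, so the balance of the 2 genes overlapped between the groups (exact permutation p = 0.6, 0.6 adjusted over the 7 ratios).

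ZEB factors are zinc finger homeobox repressors of epithelial genes. *Zeb1* on chromosome 18 (5591860 to 5775467) had 75.5, 61.5 and 24.4 TPM without 4OHT and 63.8, 20.9 and 46.2 TPM with 4OHT. Wells of the same group differed about as much as wells of different groups, with a coefficient of variation of 49.1% and 49.5%, the widest of the 10 genes in both groups. The log2 fold change of -0.29 had an interval from -1.63 to 1.05 (adjusted p = 0.803 by limma-trend), and it turned above 0 when OSKA − 4OHT replicate 1 (0.027) or OSKA + 4OHT replicate 2 (0.16) was left out. *Zeb1* has 12 annotated transcripts of 266 to 5801 bases, and 1 of 2768 bases holds a stretch of about 106 bases that is repeated in transcripts of many other genes. The part of this in the spread of *Zeb1* was not tested. *Zeb2* on chromosome 2 (44983632 to 45117395) was steadier, with 16.4, 17.1 and 15.2 TPM without 4OHT and 12.1, 9.94 and 10.4 TPM with 4OHT. The groups of *Zeb2* did not overlap, and the mean with 4OHT was 0.664 of that without, but the gene was not called (log2 fold change -0.57, interval -1.002 to -0.14, adjusted p = 0.132 by limma-trend). *Zeb2* has 29 annotated transcripts and shares 183 bases with the antisense gene *Zeb2os*.

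*Prrx1* encodes a homeobox factor of limb and craniofacial mesenchyme that can induce EMT. It lies on chromosome 1 (163245119 to 163313710), and it had 276, 272 and 250.5 TPM without 4OHT and 192, 220.4 and 199 TPM with 4OHT. The groups did not overlap and the spread within each was narrow, but the log2 fold change of -0.39 (interval -0.65 to -0.12) had an adjusted p of 0.111 by limma-trend. *Prrx1* made up between 60.5% and 71.9% of the summed TPM of the 7 factor genes in each library. This sum was 432, 417 and 358 TPM without 4OHT and 317, 306.5 and 303 TPM with 4OHT, without overlap. Its paralog *Prrx2* ranged from 5.27 TPM in OSKA + 4OHT replicate 3 to 61.8 TPM in OSKA − 4OHT replicate 2, and its groups overlapped (adjusted p = 0.267 by limma-trend).

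N-cadherin is the cell adhesion protein that mesenchymal cells carry where epithelial cells carry E-cadherin. *Cdh2* on chromosome 18 (16588877 to 16809246) had 50.1, 46.8 and 36.7 TPM without 4OHT and 22.8, 21.7 and 24.3 TPM with 4OHT. Every well with 4OHT was below every well without it. The gene fell by 0.93 on the log2 scale (standard error 0.176, interval -1.36 to -0.51, adjusted p = 0.0366 by limma-trend). With 1 library left out the adjusted p stayed under 0.05 only without OSKA − 4OHT replicate 3 (0.0454) and was from 0.0808 to 0.132 in the other 5 fits by limma-trend, while the log2 fold change stayed between -1.06 and -0.84. A fit without the trend of the variance gave an adjusted p of 0.0617 by limma. With the replicate number as a block, *Cdh2* had an adjusted p of 0.132 by limma-trend.

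The other cadherins place *Cdh2* in its family. Of the 11 cadherin genes listed, 6 were tested, and of these 5 had a fitted change below 0 under each scaling, *Cdh2* included. Those called lower were *Cdh10*, *Cdh11*, *Cdh13* and *Cdh2*, and *Cdh1* was called higher, where 1.97% and 3.52% of all tested genes were called lower and higher. *Cdh13*, which encodes T-cadherin and was the most abundant of the family, had 393, 266 and 240.0 TPM without 4OHT and 151, 123 and 134 TPM with 4OHT. Its log2 fold change was -1.11 (adjusted p = 0.0363 by limma-trend), and with any 1 library left out the adjusted p was from 0.05004 to 0.133. *Cdh11*, encoding the cadherin OB of fibroblasts and bone-forming cells, fell from 109 ± 12.0 to 43.4 ± 9.89 TPM (SD, n = 3 each; adjusted p = 0.0184 by limma-trend), with an adjusted p of 0.0342 to 0.0832 in the fits that left out 1 library and under 0.05 only without OSKA − 4OHT replicate 3 or OSKA + 4OHT replicate 2. *Cdh10* fell from 18.3 ± 2.21 to 4.71 ± 0.821 TPM (SD, n = 3 each; adjusted p = 0.0100 by limma-trend), and among the fits that left out 1 library its call was lost only without OSKA + 4OHT replicate 1 (0.0542). The number of cadherin genes called lower was 3 without OSKA − 4OHT replicate 3 and 0 to 2 without any other library.

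E-cadherin, the adhesion protein of epithelia and a target of the SNAIL and ZEB repressors, moved the other way. *Cdh1* had 7.496, 6.51 and 9.17 TPM without 4OHT and 35.2, 33.1 and 32.5 TPM with 4OHT. It rose by 2.06 on the log2 scale (standard error 0.190, adjusted p = 0.00471 by limma-trend), a call kept in all 6 fits that left out 1 library. With the replicate number as a block the call was lost (adjusted p = 0.0596 by limma-trend). Within a library *Cdh1* was at 0.1496, 0.139 and 0.2497 of the level of *Cdh2* without 4OHT, and at 1.55, 1.52 and 1.34 times that level with 4OHT. The order of the 2 cadherins was the opposite in every well of the 2 groups, and the ratio of their levels differed 8.47-fold between the groups (geometric means, exact permutation p = 0.1, the smallest possible, 0.233 adjusted over the 7 ratios). The ratio was taken from TPM without a pseudocount, so multiplying a library by a constant leaves it the same.

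**Figure D2:**
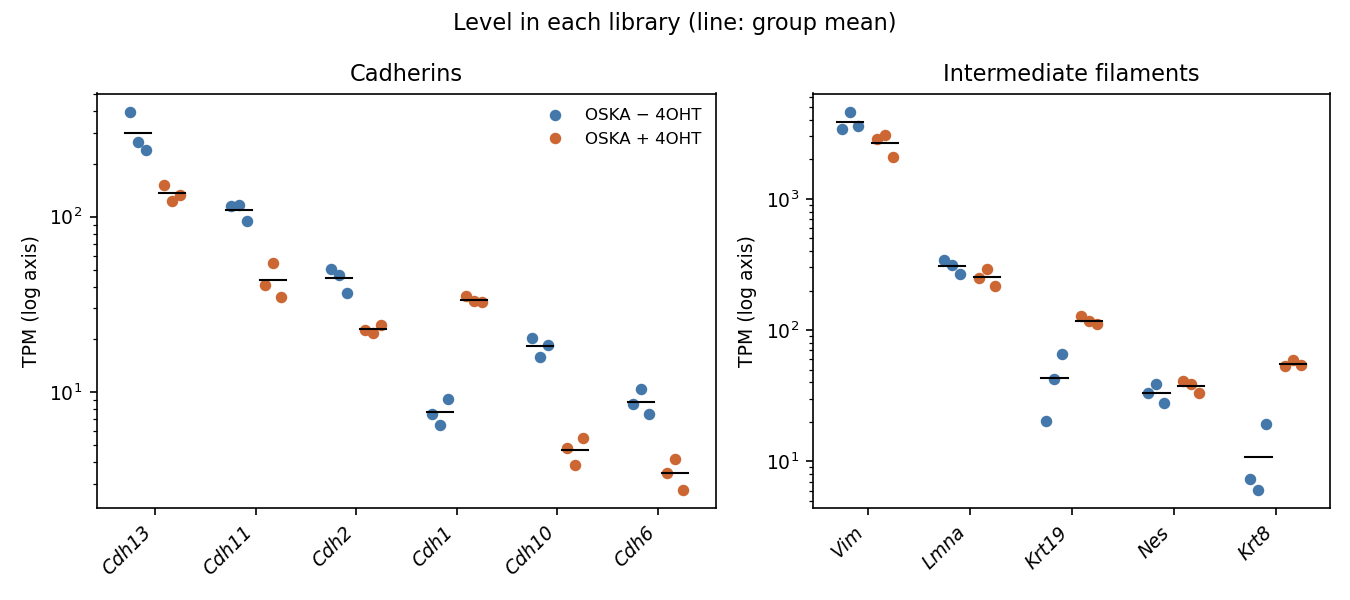
TPM in each library, on log axes, for the tested cadherin genes (left) and for *Vim* with 4 other intermediate filament genes (right), with 3 points per group and a line at the group mean. *Cdh1* crosses from below *Cdh2* to above it with 4OHT, the other cadherins shown are lower with 4OHT, and *Krt8* is higher while *Vim* remains the most abundant filament gene shown.

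Vimentin was by far the most abundant of the 10. *Vim* on chromosome 2 (13573927 to 13582826) had 3374, 4553 and 3603 TPM without 4OHT and 2863, 3065 and 2075 TPM with 4OHT. The lowest well without 4OHT was above the highest well with it, but the log2 fold change of -0.53 (interval -0.98 to -0.09) had an adjusted p of 0.163 by limma-trend. The keratin gene *Krt8*, the epithelial counterpart of *Vim*, was called higher (log2 fold change 2.48, adjusted p = 0.0265 by limma-trend), a call kept only without OSKA − 4OHT replicate 3 among the fits that left out 1 library (0.0131, and up to 0.102 in the others). Its ratio to *Vim* was 0.00218, 0.00134 and 0.00533 without 4OHT and 0.0186, 0.0195 and 0.0260 with 4OHT. The ranges of this ratio did not overlap (exact permutation p = 0.1, 0.233 adjusted over the 7 ratios), and *Vim* stayed in large excess over *Krt8* in every well. *Krt18*, which pairs with *Krt8*, had 0.697, 2.12 and 17.7 TPM without 4OHT and 12.1, 13.9 and 16.5 TPM with 4OHT, so OSKA − 4OHT replicate 3 was above all wells with 4OHT and the gene was not called (adjusted p = 0.311 by limma-trend). Of 15 other intermediate filament genes 13 were tested, and *Krt8* and the neurofilament gene *Nefl* were called higher and 0 lower (4 higher without OSKA − 4OHT replicate 3, and 1 to 2 without any other library). At an unadjusted p under 0.05, 6 were higher and 0 lower by limma-trend. Of all tested genes 3.52% were called higher and 1.97% lower, and 14.1% and 7.18% at an unadjusted p under 0.05. The most abundant of the 15 filament genes, the lamin gene *Lmna*, was not called (306 ± 37.6 and 252 ± 37.7 TPM, SD, n = 3 each; adjusted p = 0.363 by limma-trend).

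*Thy1*, on chromosome 9 (44043384 to 44048579), did not share the direction of the other 9 genes. Its level was 198, 208 and 133 TPM without 4OHT and 222, 268 and 389 TPM with 4OHT. Every well with 4OHT was above every well without, although the gap between the nearest wells, 208 and 222 TPM, was narrow. The log2 fold change was 0.69 (interval 0.05 to 1.33) with an adjusted p of 0.203 by limma-trend, so the gene was not called in either direction. It remained above 0 in all 14 alternatives, with the lowest value of 0.47 without OSKA + 4OHT replicate 3 and the highest of 0.87 without OSKA + 4OHT replicate 1. *Prrx1* was above *Thy1* in each well without 4OHT and below it in each well with 4OHT, and the ratio of *Thy1* to *Prrx1* was 0.718, 0.764 and 0.531 in the former and 1.16, 1.22 and 1.96 in the latter (exact permutation p = 0.1, 0.233 adjusted over the 7 ratios).

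**Figure D3:**
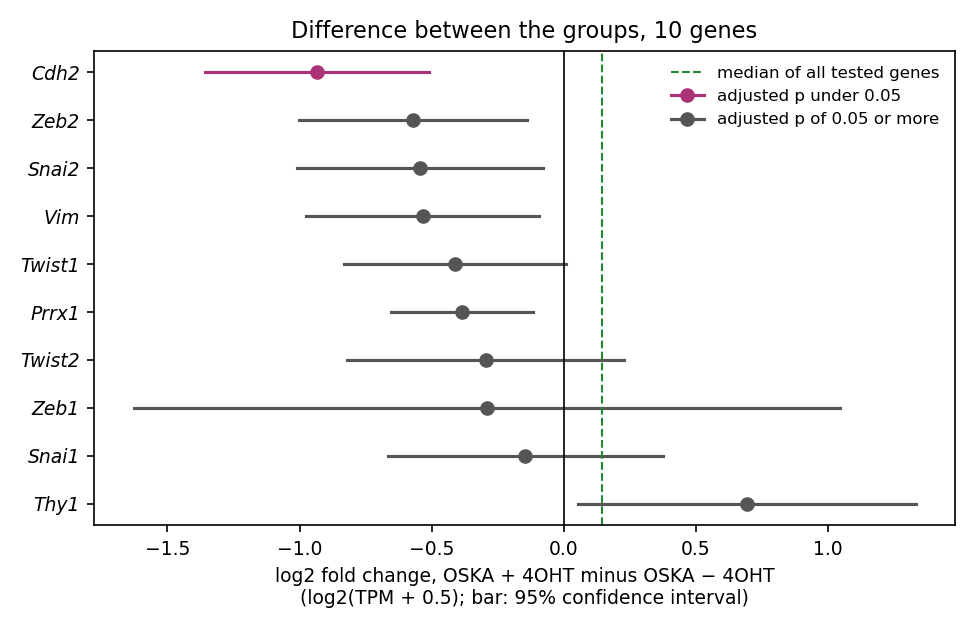
Log2 fold change of each of the 10 genes (OSKA + 4OHT minus OSKA − 4OHT, log2(TPM + 0.5)) with its 95% confidence interval, beside the median of all tested genes (dashed line). *Cdh2* is the gene called at an adjusted p under 0.05, *Zeb1* has the widest interval, and *Thy1* is the one gene with a value above 0.

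Ordered by the mean level over the 6 libraries, which TPM allows because it is scaled by length, the genes ran from *Vim* through *Thy1*, *Prrx1*, *Zeb1*, *Cdh2*, *Twist1*, *Zeb2*, *Twist2* and *Snai2* to *Snai1*. The ranges of *Zeb1* and *Cdh2*, of *Zeb2* and *Twist2*, and of *Twist2* and *Snai2* overlapped in both groups, so the order within these pairs is not resolved. *Thy1* and *Prrx1* changed places between the groups, with *Prrx1* the higher in every well without 4OHT. *Cdh2* was above *Twist1* in every well without 4OHT, and their ranges overlapped with 4OHT. *Snai1* was below *Snai2* in both groups without overlap. Of the 15382 tested genes, *Vim* ranked 32nd by mean level and *Snai1* 10150th.

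Other mesenchymal genes from a list written by hand included larger changes than the 10. Of its 21 genes, all tested, 9 were called lower and 3 higher, and 15 had a fitted change below 0 (16 under either other scaling). Among all tested genes 1.97% were called lower and 3.52% higher. The median of the list was -0.58 on the log2 scale. The largest fall was that of *Mme*, the surface peptidase neprilysin, with a mean of 142 ± 6.03 TPM without 4OHT and 38.9 ± 4.91 TPM with it (SD, n = 3 each; change on the log2 scale -1.86, adjusted p = 0.00367 by limma-trend), which was called in all 6 fits that left out 1 library. *Mme* was not called with the replicate number as a block (adjusted p = 0.0555 by limma-trend). The largest rise was that of *Nt5e*, the surface nucleotidase CD73, with a mean of 16.5 ± 1.25 TPM without 4OHT and 45.2 ± 6.77 TPM with it (SD, n = 3 each; change on the log2 scale 1.42, adjusted p = 0.0113 by limma-trend), a call lost, among the fits that left out 1 library, only without OSKA + 4OHT replicate 1 or 2 (up to 0.0574). Both other genes called higher, *Cd34* and *Ly6a*, named after their values were seen, also encode surface proteins of stromal cells. *Cd34* had 178 ± 45.3 and 435 ± 36.7 TPM and *Ly6a* 2996 ± 221 and 4745 ± 714 TPM (SD, n = 3 each), and among the fits that left out 1 library *Cd34* was called only without OSKA − 4OHT replicate 1 and *Ly6a* only without OSKA + 4OHT replicate 3 (adjusted p up to 0.0843 and 0.149 by limma-trend). *Cd44* was at 182 ± 9.50 and 185 ± 7.43 TPM (SD, n = 3 each) and was chosen after its values were seen, with a log2 fold change of 0.025 and an interval from -0.23 to 0.28. Surface markers were found among the genes called higher as well as among those called lower. With 1 library left out, 3 to 8 genes of the list were called lower, fewest without OSKA + 4OHT replicate 1, and 0 to 2 higher, with 0 without OSKA + 4OHT replicate 1 or 2.

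On the epithelial side, 20 of 23 genes that these factors are known to repress were tested. *Krt8*, *Cdh1*, *St14* and *Epcam* were called higher and 0 lower by limma-trend, and at an unadjusted p under 0.05 8 were higher and 0 lower. Of all tested genes 3.52% were called higher and 1.97% lower, and 14.1% and 7.18% at an unadjusted p under 0.05. Left out in turn, OSKA − 4OHT replicate 3 gave 6 genes called higher and each of the other 5 libraries gave 1. The list's median log2 fold change was 0.98. *Epcam*, which encodes an epithelial adhesion molecule and whose upstream bases with 2 E-box matches are shown above, had 14.6, 23.9 and 23.3 TPM without 4OHT and 50.1, 49.3 and 41.0 TPM with 4OHT (log2 fold change 1.19, adjusted p = 0.0416 by limma-trend). Its call was lost with any 1 library left out (0.0611 to 0.146). The junction genes *Jup* and *Tjp1*, named after their values were seen, had 245 ± 12.7 and 106 ± 30.3 TPM without 4OHT and 218 ± 15.6 and 90.3 ± 14.8 TPM with 4OHT (SD, n = 3 each), and neither was called (adjusted p = 0.440 and 0.7005 by limma-trend). Of 12 factors that oppose EMT 7 were tested, and *Grhl3*, an epidermal grainyhead factor, was called higher, with 0.345, 0.165 and 0.494 TPM without 4OHT and 6.31, 5.26 and 4.27 TPM with 4OHT (adjusted p = 0.0184 by limma-trend). In the fits that left out 1 library its adjusted p was from 0.0416 to 0.110, and under 0.05 only without OSKA − 4OHT replicate 1 or 3. In OSKA − 4OHT replicate 3 the factor *Elf3* was at 9.75 TPM, against 0.516 and 0.204 TPM in replicates 1 and 2, and of the 4 epithelial markers this library had the highest *Krt8*, *Krt18* and *Cdh1* of its group, while *Epcam* was highest in replicate 2. Of the other epithelial targets, *Cldn3*, *Cldn4*, *Cldn7*, *Crb3*, *Dsp*, *Dsg2*, *Krt19*, *Rab25*, *St14* and *Cdh3* were also highest there. Some of these were low and close to replicate 1: *Rab25* (1.135 against 1.129 TPM), *Crb3* (1.32 against 1.12 TPM) and *Dsg2* (1.66 against 1.51 TPM). *Cdh3*, at 1.34 TPM, was not tested. *Jup*, *Tjp1*, *Pkp3*, *Patj* and *Muc1* were lowest in OSKA − 4OHT replicate 3 within the group. Among the 10 genes it had the lowest *Snai1*, *Twist2*, *Zeb1*, *Zeb2*, *Prrx1*, *Cdh2* and *Thy1* of the group but the highest *Snai2* and *Twist1*, with *Vim* in between.

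**Figure D4:**
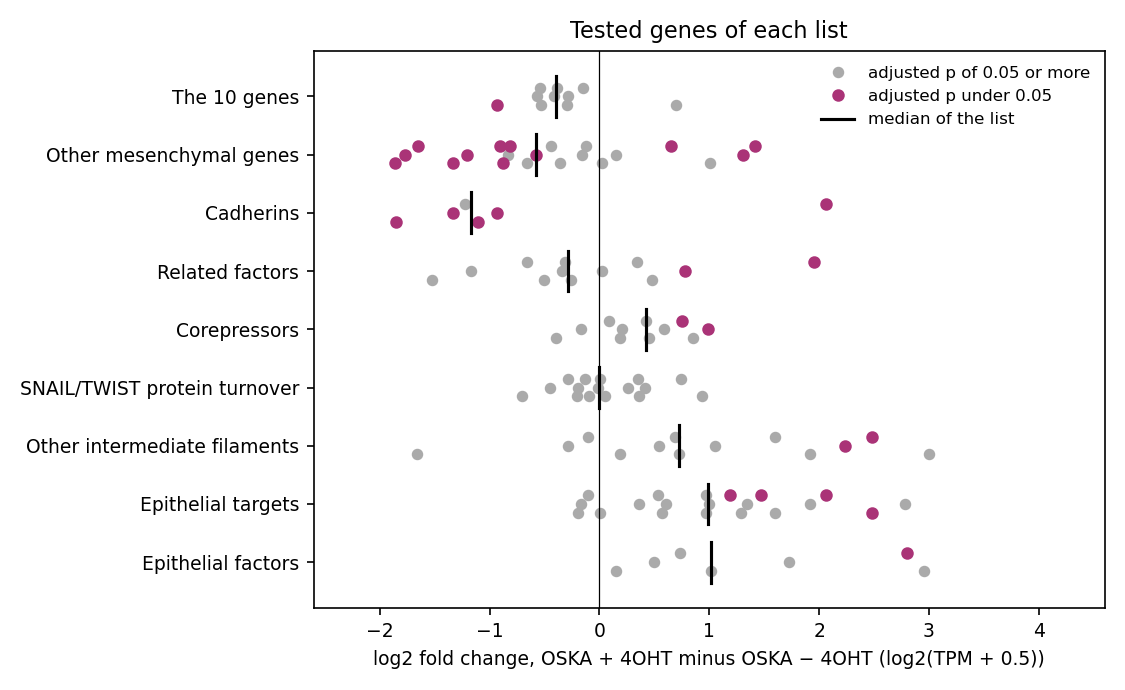
Log2 fold change (OSKA + 4OHT minus OSKA − 4OHT, log2(TPM + 0.5)) of every tested gene of the 10 and of 8 further lists, 1 point per gene, with a bar at the median of each list and filled purple points for an adjusted p under 0.05. The cadherin list includes *Cdh2*, and some genes are in more than 1 list. The medians run from -1.17 for the cadherins to 1.01 for the epithelial factors, with the 10 genes at -0.40.

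Genes that act together with or on the EMT factors were listed in 3 groups. Of all tested genes, 3.52% were called higher and 1.97% lower by limma-trend. At an unadjusted p under 0.05 these shares were 14.1% and 7.18%. Of 16 partners and related factors 12 were tested, and *Sox9* and *Tcf3* were called higher and 0 lower, with 2 higher and 2 lower at an unadjusted p under 0.05 by limma-trend. *Sox9*, a factor of cartilage and neural crest that can cooperate with SNAI2, rose from 2.18 ± 0.589 to 9.69 ± 0.591 TPM (SD, n = 3 each; adjusted p = 0.0159 by limma-trend), with 0.0369 to 0.0811 in the fits that left out 1 library and under 0.05 only without OSKA − 4OHT replicate 1 or 3. *Tcf3*, the E-protein partner of TWIST, was at 24.0 ± 1.69 and 41.5 ± 3.08 TPM (SD, n = 3 each; adjusted p = 0.0394 by limma-trend, and 0.0777 to 0.138 with 1 library left out). Of the 11 corepressor genes, *Hdac1* and *Hdac2*, histone deacetylases recruited by SNAIL, were called higher and 0 lower, with 5 higher and 0 lower at an unadjusted p under 0.05 by limma-trend. *Hdac1* rose from 55.3 ± 5.65 to 110.2 ± 11.0 TPM (SD, n = 3 each; adjusted p = 0.0184 by limma-trend, 0.0384 to 0.0852 with 1 library left out, under 0.05 only without OSKA − 4OHT replicate 3 or OSKA + 4OHT replicate 3). *Hdac2* had an adjusted p of 0.0299, and of 0.0633 to 0.116 with 1 library left out. Among the 16 kinases, ubiquitin ligases and deubiquitinases that set the amount of SNAIL or TWIST protein, 0 were called by limma-trend, and 2 were higher and 1 lower at an unadjusted p under 0.05. These counts, like the 2 higher of the 12 tested partners, were near the shares of all tested genes. *Gsk3b*, the kinase that marks SNAIL for degradation and is itself inhibited by AKT, had overlapping groups at 59.0 ± 18.3 and 51.4 ± 15.8 TPM (SD, n = 3 each) and was chosen after its values were seen. These are RNA levels and do not measure protein, phosphorylation or activity.

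**Figure D5:**
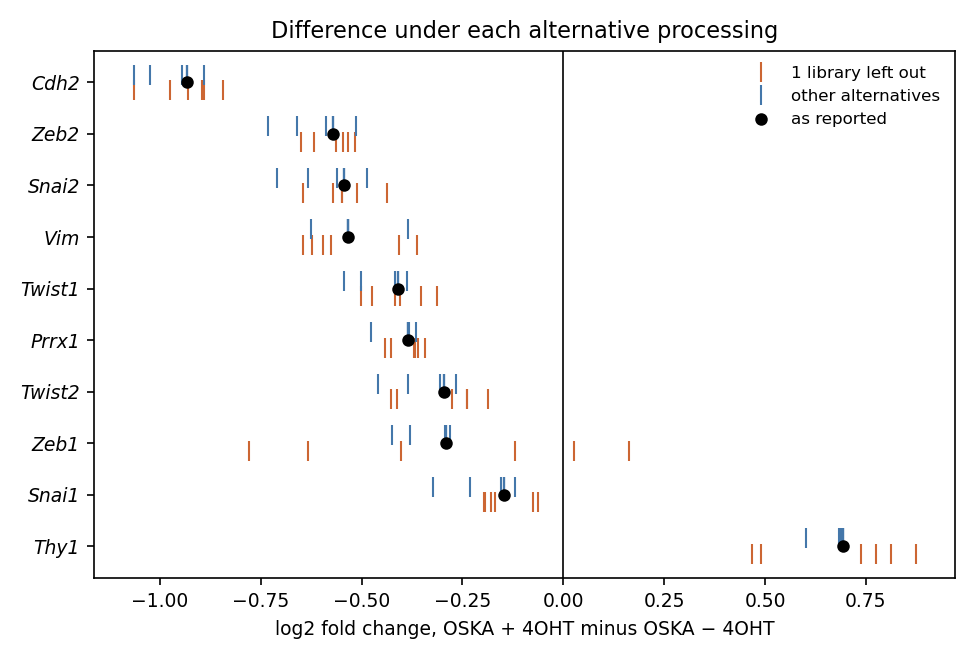
Log2 fold change of each of the 10 genes as reported (black) and in the fits that left out 1 library (orange marks) or changed another processing choice (blue marks). 9 genes keep their sign in every alternative, and *Zeb1* ranges from -0.78 to 0.16.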

How the data were processed

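RNA from 6 wells was sequenced by the authors as stranded polyA libraries with single-end reads. Reads were trimmed with Trim Galore and quantified with Salmon by the authors, who deposited TPM per gene and well. Versions, genome build and annotation are not given in the sources used here. The authors also deposited their own edgeR comparison (a log2 fold change and log2 level, an F score and an unadjusted p-value), which was not used.

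Symbols and positions came from GENCODE M21 on GRCm38, which matched 54097 of 54331 identifiers. The 15382 genes whose mean reached 1 TPM were fitted by limma-trend (limma 3.58.1, R 4.3.3) as log2(TPM + 0.5), without a block, with Benjamini-Hochberg adjustment over all of them. The fit was tested on simulated data. Correlations between wells of 1 group were 0.809 to 0.864 across genes. BLAST 2.17.0 was used to find similar transcripts (at least 95% identity over 50 bases), and promoters with Python 3.11.15.

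The members and lists were chosen with earlier results of these data known. All 10 members were named. Of each list, the genes with the largest called rise and fall were named, as well as the most abundant cadherin and filament genes, paralogs and set epithelial counterparts. A planned comparison of protein sequences was not made. Ratios within libraries were added after the data had been seen. The result of 1 further marker list is not reported here.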

Additional observations from a re-analysis of the deposited data

How the results depend on the processing

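Across 14 alternatives (pseudocounts of 0.1 and 2, no filter, a mean of at least 5 TPM, the replicate number as a block, other scalings, limma without the trend, and each library left out), 9 of the 10 genes kept the sign of their change. The exception, *Zeb1*, ranged from -0.78 without OSKA − 4OHT replicate 3 upward and was 0.027 without OSKA − 4OHT replicate 1 and 0.16 without OSKA + 4OHT replicate 2. The count of members called lower was 0 with the replicate block and 0 in limma without the trend, and between 0 and 1 with 1 library left out. No other member was called in any alternative. Across all genes, leaving out 1 library gave 112 to 318 genes higher and 63 to 147 lower, with the fewest without OSKA + 4OHT replicate 1.

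The labels share replicate numbers but do not say that they pair wells. The reported fit was planned without pairing. Deviations of same-numbered wells correlated at 0.024, 0.034 and 0.084 across genes. These values are small but positive, and they cannot show whether the wells were paired. Of the 6 wells 5 correlated best with their own number, and OSKA + 4OHT replicate 1 correlated slightly better with OSKA − 4OHT replicate 2 (0.033). The fit with the replicate block called 31 genes higher and 16 lower and gave *Cdh2* an adjusted p of 0.132 by limma-trend. In that fit the calls of *Cdh1* (0.0596) and *Mme* (0.0555) were also lost, and 0 genes were called among the epithelial targets, cadherins, EMT partners, corepressors and epithelial factors, so that *Sox9*, *Tcf3*, *Hdac1*, *Hdac2* and *Grhl3* also lost their calls (0.0853 to 0.146). Of the other mesenchymal genes 1 was called lower and 0 higher (*Nt5e*, *Cd34* and *Ly6a* lost), and of the other intermediate filament genes 1 was called higher. With 1 library left out, genes called lower among the other mesenchymal genes numbered 3 to 8 against 9, and genes called higher among the epithelial targets 1 to 6 against 4. Without counts, the reads behind low genes such as *Snai1* are unknown, and with 3 wells a gene that was not called is not shown to be unchanged.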
